A study of Mus musculus with 12 samples.

Results

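Protein kinase CK2 is built from the products of 3 genes, Csnk2a1, Csnk2a2 and Csnk2b, and their RNA was followed here through 12 libraries of mouse rod photoreceptors. The 3 genes were chosen by symbol, with no measured value in the rule but with earlier results of these data known. Each symbol had 1 entry on a primary chromosome. They are 3 of the 52962 genes in the deposited gene table, and their 25 transcripts are among the 141196 of the deposited transcript table. On the mouse build mm10 (GRCm38), Csnk2a1 (ENSMUSG00000074698) lies on the plus strand at chr2:152226839-152281852 and has 5 annotated transcripts. Csnk2a2 (ENSMUSG00000046707) lies on the minus strand at chr8:95446096-95490039 with 10 transcripts, and Csnk2b (ENSMUSG00000024387) on the minus strand at chr17:35116196-35122053 with 10 transcripts. All 3 passed the filter on low counts.

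CK2 is a serine and threonine kinase that prefers sites surrounded by acidic residues and is active without an upstream activating signal. The holoenzyme joins a pair of catalytic subunits, alpha (encoded by Csnk2a1) or alpha prime (encoded by Csnk2a2), to a dimer of the regulatory subunit beta (encoded by Csnk2b), which sets stability and substrate choice. In the retina the study's title ties the kinase to NRL, the transcription factor that directs photoreceptor precursors to the rod fate.

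Retinas of mice were electroporated, a pulse of current that carries plasmids into cells, and the treated areas were taken at postnatal day 8. GFP-positive rods were picked singly with a micromanipulator, 50 to 100 cells entered each library, and total RNA was amplified by PCR in a strand-specific kit for small inputs. There were 3 libraries in each of 4 groups, named here as the labels name them. Cells of shRNA mCsnk2a1 received a short hairpin RNA against mouse Csnk2a1 and those of shRNA Control a control hairpin. Cells of pcDNA4c mCsnk2a1 received the expression vector pcDNA4c with mouse Csnk2a1, and those of pcDNA4c Control the control vector. All groups shared the electroporation and the GFP selection. Not given in the sources used here are the mouse strain, the hairpin's sequence, the promoters of the plasmids and the part of Csnk2a1 in the vector. RNA samples are described as independent, but not as separate animals, so a p-value here speaks of the spread among the samples given, which may in part be technical.

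Summed estimated counts were higher in every treated library than in every control of its arm, at 2840426 to 3567121 with the hairpin against 1608926 to 1856775, and at 2296056 to 3551328 with the Csnk2a1 vector against 1692419 to 2017623. The mitochondrial share of counts separated the same groups, at 10.14% to 11.35% against 8.26% to 8.69% and at 9.54% to 12.78% against 7.31% to 8.64%. Both therefore move with every treated and control comparison below, and their part in the results was not tested. Fewer genes had a count with the Csnk2a1 vector, at 16164 to 18782 against 22688 to 25326 in its control. With the hairpin 17566 to 20682 genes had a count, against 20352 to 22146 in its control, and these ranges overlapped. The part of this difference was not tested either. Libraries of 1 group had rank correlations of 0.522 to 0.689 over 20267 genes. The rod identity was checked with 13 marker genes, all detected in every group. Their summed level was 12120 to 14316 CPM (counts scaled to a common library total) in shRNA mCsnk2a1, 5418 to 7934 in its control, 5287 to 11729 in pcDNA4c mCsnk2a1 and 5513 to 6996 in its control. The 12 microglial markers summed to 808 to 940 CPM in pcDNA4c Control, against 9.83 to 99.8 in the 9 other libraries. The 8 Mueller glial markers summed to 1175 to 1560 CPM in pcDNA4c Control against 515 to 599 with the Csnk2a1 vector, and to 1027 to 1492 with the hairpin against 385 to 625 in its control. The 8 bipolar cell markers were higher in both treated groups, at 723 to 1780 CPM with the hairpin against 481 to 618 and at 780 to 1028 CPM with the Csnk2a1 vector against 169 to 293. The pcDNA4c Control libraries therefore stood apart in microglial markers, and every comparison that uses them carries that difference. C1qa and C1qc were at 0 in shRNA Control, C1qa, Aif1, Cd68, Ctss and Lyz2 in shRNA mCsnk2a1, and C1qa, C1qb, P2ry12, Tmem119, Ctss and Lyz2 in pcDNA4c mCsnk2a1. No marker of Mueller glia or bipolar cells was at 0 in all libraries of a group, and the part of other cell types in the results was not tested.

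The gene targeted in both arms has a close copy, and the sequences show which reads can separate the genes. The main Csnk2a1 message, Csnk2a1-201, has 13 exons, 4206 bases and 1173 coding bases. Csnk2a3 (ENSMUSG00000101523, chr1:156524012-156526644, 1 exon) is a processed pseudogene in the deposited table. GENCODE mouse release M21 types its transcript as protein-coding, with 1173 coding bases. It aligns over the same 1173 bases as Csnk2a1-201, of which 1 differs, an identity of 99.9%. Csnk2a2 is more distant, with 248 of 1045 aligned coding bases different and an identity of 76.3%. The fourth exon of Csnk2a1-201 (chr2:152257378-152257479, plus strand, 102 bases, 34 codons) encodes part of the kinase's lysine-rich stretch, which takes part in substrate recognition. It is shown because Csnk2a1-202 skips it and because it contrasts both paralogs. The Csnk2a3 counterpart (chr1:156524444-156524545) had 0 differences from it. The Csnk2a2 counterpart, exon 3 of Csnk2a2-201 (chr8:95477212-95477313, minus strand), had 29 differences, written in capitals. Sequences are those of GENCODE mouse release M21.
Csnk2a1 exon 4: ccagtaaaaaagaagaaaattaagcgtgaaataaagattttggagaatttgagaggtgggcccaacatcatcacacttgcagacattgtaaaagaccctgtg
Csnk2a2 exon 3: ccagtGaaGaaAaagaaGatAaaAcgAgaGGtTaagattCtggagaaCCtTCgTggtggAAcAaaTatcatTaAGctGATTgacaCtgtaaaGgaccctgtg

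Of the 31-base words of Csnk2a1-201, 58.6% also occur in Csnk2a3 and 40.4% occur in no other transcript. For the shorter Csnk2a1-202 and Csnk2a1-203 the shares in common with Csnk2a3 were 89.5% and 76.8%. No such word was shared between Csnk2a1 and Csnk2a2. Reads from the coding sequence of Csnk2a1 and from Csnk2a3 therefore cannot be told apart for nearly all positions, and the level of either gene depends on how the authors' counting divided them. Splice sites separate some messages of Csnk2a1 from each other. The skip in Csnk2a1-202 and the intron boundary in Csnk2a1-204 set those messages apart. The junction shown for Csnk2a1-201 need not, since Csnk2a1-203 also ends within exon 4. Csnk2a3 differs from Csnk2a1 at only 1 of 1173 coding bases. The 40 bases around each site are given below, from the plus strand of chromosome 2. Capitals mark what follows the upstream exon, which ends at position 152254321 for the first pair and at 152272729 for Csnk2a1-204. In Csnk2a1-201 that is exon 4, in Csnk2a1-202 the exon after it, and in Csnk2a1-204 the first of 611 retained intron bases.
Csnk2a1-201: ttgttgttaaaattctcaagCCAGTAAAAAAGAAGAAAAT
Csnk2a1-202: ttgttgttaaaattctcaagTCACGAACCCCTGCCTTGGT
Csnk2a1-204: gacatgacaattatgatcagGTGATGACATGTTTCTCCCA

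Csnk2a1 RNA was the target of both arms. Its levels did not separate either treated group from its control, so they do not check the labels, and libraries are called by their labels throughout. After TMM scaling, which sets libraries on a trimmed mean of log ratios, the shRNA Control libraries 1, 2 and 3 were at 66.9, 56.9 and 8.27 CPM. The shRNA mCsnk2a1 libraries 1, 2 and 3 were at 12.0, 22.1 and 36.1 CPM. The library labelled shRNA Control 3 had the lowest level of all 12, below every hairpin library, while the other control libraries were above every hairpin library. Group means were 23.4 ± 12.1 CPM with the hairpin and 44.0 ± 31.4 CPM with its control (SD, n = 3 each). The log2 fold change, hairpin minus control, was -0.92 (SE 0.88, edgeR quasi-likelihood adjusted p = 0.905 over 20267 genes). An exact two-sided permutation test on CPM gave p = 0.4, where 3 against 3 libraries cannot go below 0.1. In the same comparison edgeR called 0% of the genes tested (0 genes, with 1688 at an unadjusted p under 0.05), while DESeq2 called 183 genes and limma voom 2, Csnk2a1 not among them.

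**Figure D1:**
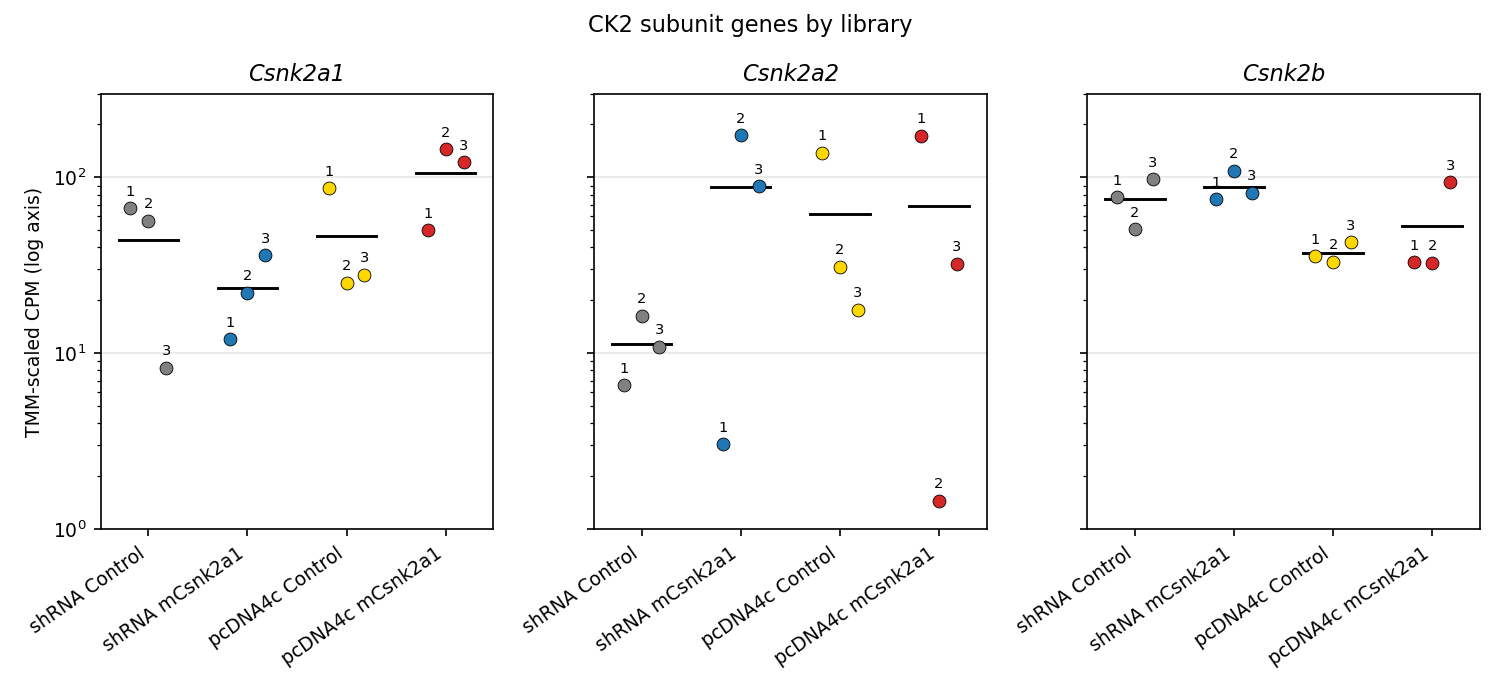
TMM-scaled CPM (log axis) of Csnk2a1, Csnk2a2 and Csnk2b, 1 point per library with its replicate number, colours for the 4 groups and a black line for each group mean of 3 libraries. Csnk2a2 spans 1.45 to 174 CPM and Csnk2b 32.8 to 109 CPM, and Csnk2a1 in the library labelled shRNA Control 3 lies at 8.27 CPM, below all hairpin libraries.

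With the vector, Csnk2a1 was at 86.6, 25.2 and 28.0 CPM in libraries 1, 2 and 3 of pcDNA4c Control. In libraries 1, 2 and 3 of pcDNA4c mCsnk2a1 it was at 50.0, 145 and 122 CPM. Libraries 2 and 3 of the overexpression group were the highest of all 12, and library 1 of that group lay below pcDNA4c Control 1. Means were 46.6 ± 34.6 CPM (SD, n = 3) and 106 ± 49.4 CPM (SD, n = 3), and the log2 fold change was 1.18 (SE 0.88, edgeR adjusted p = 0.801). The exact two-sided permutation test gave p = 0.2. Here edgeR called 0.0987% of the genes tested, and Csnk2a1 was not among them. In RNA pooled over the picked GFP-positive cells, a smaller share of cells with the plasmid and less plasmid RNA per cell cannot be told apart. Plasmid and endogenous Csnk2a1 RNA were not counted separately.

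Single libraries moved both values for Csnk2a1. Without shRNA Control 3 the log2 fold change of the hairpin was -1.43, and without shRNA Control 1 it was -0.50. Without pcDNA4c Control 1 the log2 fold change of the vector was 1.99, and without pcDNA4c Control 2 it was 0.86. The edgeR contrast of the overexpression effect minus the knockdown effect was 2.09 (SE 1.24, adjusted p = 0.672), with 0.0197% of genes called. The direct contrast of the opposite manipulations did not overlap. These groups also differ in the plasmid, and the part of that difference was not tested. shRNA mCsnk2a1 reached 36.1 CPM at most and pcDNA4c mCsnk2a1 was at least 50.0 CPM (exact two-sided permutation p = 0.1, adjusted p = 0.45 over 18 pairs of groups). Of all genes tested, 9.45% did not overlap between these groups in CPM.

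The authors' counting assigned little of the signal to the copy Csnk2a3 in most libraries. Since 93.3% of the 31-base words of Csnk2a3 also occur in Csnk2a1, the true split between the genes is not known. The CPM assigned to Csnk2a3 was 22.4, 0.385 and 0 in the 3 shRNA Control libraries and 0, 2.05 and 0 with the hairpin. It was 1.51, 1.42 and 0 in the pcDNA4c Control libraries and 8.13, 1.24 and 0 with the Csnk2a1 vector. In shRNA Control 1 it made up 25.1% of the summed Csnk2a1 and Csnk2a3 CPM, in pcDNA4c mCsnk2a1 1 14.0% and in shRNA mCsnk2a1 2 8.51%. Summed over both genes, the group means were 24.1 ± 12.0 CPM with the hairpin against 51.6 ± 40.8 in its control, and 109 ± 45.4 with the vector against 47.6 ± 35.1 in its control (SD, n = 3 each). The groups of each arm also overlapped with the copy added.

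Csnk2a1 transcripts were compared in TPM, the abundance of a transcript after division by its length, scaled to 1 total for all libraries. Csnk2a1-201, the full-length message, was the only transcript of the gene above 0 in all 12 libraries. In libraries 1, 2 and 3 its TPM was 2.21, 4.61 and 1.52 for shRNA Control and 1.13, 1.49 and 6.36 for shRNA mCsnk2a1. The pcDNA4c Control libraries were at 2.52, 1.75 and 2.69 and those of the Csnk2a1 vector at 2.52, 6.85 and 5.67. The groups overlapped in both arms. On the log2(TPM + 1) scale the difference was -0.07 (SE 0.66, limma adjusted p = 1.00) with the hairpin and 0.79 (SE 0.66, limma adjusted p = 0.893) with the vector. Of 38584 transcripts tested, limma called 0.0311% in the knockdown comparison and 0.117% in the overexpression comparison, and 0 of the 10 CK2 subunit transcripts that passed the TPM filter were among them. The other 15 of the 25, Csnk2a2-202, Csnk2a2-206 and Csnk2a2-210 included, were not tested. For the difference between the arms limma called 0.00518% of transcripts, and Csnk2a1-201 was at 0.86 (SE 0.93, limma adjusted p = 0.924).

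The other coding messages of Csnk2a1 were each present in few libraries. Csnk2a1-202, a 600-base model with an incomplete 3' end that skips exon 4, was listed at 8.62 TPM in shRNA Control 1, 5.30 in pcDNA4c mCsnk2a1 1 and 20.7 in pcDNA4c mCsnk2a1 2, and at 0 in the other 9. It held the larger part of the coding TPM in pcDNA4c mCsnk2a1 2, where Csnk2a1-201 was at 6.85. The 466-base Csnk2a1-203, also incomplete at its 3' end, was listed at 9.69 and 0.882 TPM in pcDNA4c Control 1 and 2, at 7.67 TPM in pcDNA4c mCsnk2a1 3, at 0.836 in pcDNA4c mCsnk2a1 2, and at 0 elsewhere. Both models are short and share most of their words with Csnk2a3, and only 4.56% of those of Csnk2a1-202 and 16.1% of those of Csnk2a1-203 occur in no other transcript. The library with the most Csnk2a1-202 held 59.8% of its summed TPM.

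Messages of Csnk2a1 with a retained intron, which do not encode the kinase, were found in both arms. Csnk2a1-204 was at 4.72, 5.18 and 0 TPM in the shRNA Control libraries and at 0.395, 2.59 and 0 with the hairpin. It was at 0, 0 and 0.992 TPM in the pcDNA4c Control libraries and at 2.41, 0.000117 and 10.7 with the Csnk2a1 vector. The value in pcDNA4c mCsnk2a1 3 was the highest of this transcript and exceeded that of Csnk2a1-201 in the same library. Differences on the log2(TPM + 1) scale were -0.94 (SE 0.97, limma adjusted p = 0.854) and 1.44 (SE 0.97, limma adjusted p = 0.848). Csnk2a1-205, which ends in 2231 retained bases, reached 3.91 TPM in shRNA Control 2 and was at or below 1.20 in the other 11. Coding transcripts held 33.6% to 100% of the gene's TPM in single libraries, with a mean of 68.9% over the 12.

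**Figure D2:**
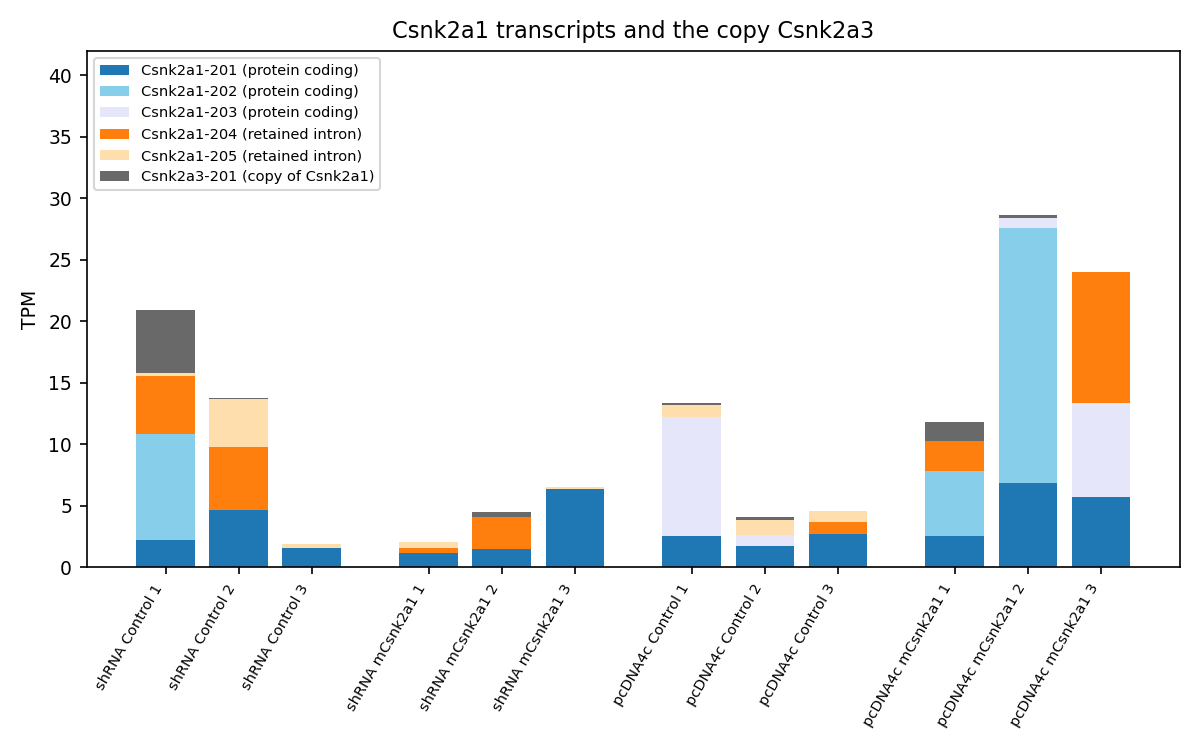
Stacked TPM of the 5 Csnk2a1 transcripts and of the copy Csnk2a3-201, 1 bar per library, blues for protein-coding models, oranges for models with a retained intron and dark grey for the copy. The full-length Csnk2a1-201 is present in all 12 bars, while the tall bars of pcDNA4c mCsnk2a1 2 and 3 hold 20.7 TPM of Csnk2a1-202 and 10.7 TPM of Csnk2a1-204.

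Summed over coding transcripts, Csnk2a1 was at 10.8, 4.61 and 1.52 TPM in the shRNA Control libraries and at 1.13, 1.49 and 6.36 with the hairpin. It was at 12.2, 2.64 and 2.69 TPM in the pcDNA4c Control libraries and at 7.82, 28.4 and 13.3 with the Csnk2a1 vector. As on the CPM scale, the groups overlapped in both arms. The log2(TPM + 1) difference was -0.70 (SE 0.79, limma adjusted p = 0.852) with the hairpin and 1.46 (SE 0.79, limma adjusted p = 0.675) with the vector. With 1 library left out, the hairpin value ran from -1.26 (without shRNA Control 3 or shRNA mCsnk2a1 3) to -0.15 (without shRNA Control 1), and the vector value from 1.00 to 2.08. Limma on coding TPM called 0% and 0.148% of 13494 genes in these comparisons. The difference between the arms was 2.16 (SE 1.12, limma adjusted p = 0.670), with 0.0296% of genes called. The opposite manipulations did not overlap on this scale either, as was so for 9.42% of all genes.

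Csnk2a2, the gene of the alternative catalytic subunit, varied most of the 3 genes. Its CPM in libraries 1, 2 and 3 was 6.59, 16.4 and 10.9 for shRNA Control and 3.04, 174 and 89.0 for shRNA mCsnk2a1. The pcDNA4c Control libraries were at 138, 31.0 and 17.7 CPM, and those of pcDNA4c mCsnk2a1 at 173, 1.45 and 32.4. Each of the last 3 groups held a library of at least 138 CPM, and both treated groups also held a library under 5 CPM. The spread over 12 libraries was 120-fold, with a coefficient of variation of 117% against a median of 106% over all 20267 genes.

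Hairpin libraries 2 and 3 were above every shRNA Control library in Csnk2a2, and hairpin library 1 was below all of them. The log2 fold change was 2.98 (SE 1.34), with an unadjusted edgeR p of 0.0387 and an adjusted p of 0.598. The exact two-sided permutation p was 0.4, on means of 88.7 ± 85.5 CPM with the hairpin and 11.3 ± 4.90 CPM with its control (SD, n = 3 each). With 1 library left out the log2 fold change stayed between 2.03 and 3.57. With the vector the log2 fold change was 0.15 (SE 1.24, edgeR adjusted p = 1.00) and its sign depended on single libraries, reaching -1.82 without pcDNA4c mCsnk2a1 1 and 1.48 at the other extreme. The difference between the arms was -2.84 (SE 1.79, edgeR adjusted p = 0.698), and ran from -4.82 without pcDNA4c mCsnk2a1 1 to -1.49 without pcDNA4c Control 1.

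The high libraries of Csnk2a2 were made of different transcripts. The full-length Csnk2a2-201 (3773 bases, 1050 coding) was above 0 in 8 of 12 libraries and reached at most 5.68 TPM, in shRNA mCsnk2a1 3. Csnk2a2-203 (6779 bases), also with 1050 coding bases, was above 0 in 10 of 12 and reached at most 1.35 TPM. Csnk2a2-201 was at 0 in shRNA Control 1 and 2, shRNA mCsnk2a1 2 and pcDNA4c Control 3. There Csnk2a2-203 was at 1.35, 0.221, 1.03 and 0.667 TPM. In shRNA mCsnk2a1 2 the gene's level came mostly from Csnk2a2-210, a 714-base coding fragment open at both ends, at 26.9 TPM. That transcript was at 2.86e-07 TPM in shRNA Control 3, at 4.69e-07 in pcDNA4c Control 2 and listed at 0 in the other 9. In pcDNA4c mCsnk2a1 1 it came from Csnk2a2-202, a processed transcript with no coding sequence, at 25.2 TPM, with 2.06 TPM in pcDNA4c mCsnk2a1 3 and 0 in the other 10. In pcDNA4c Control 1 it came from Csnk2a2-206, another noncoding processed transcript, at 13.0 TPM and listed at 0 in the other 11. Over the 12 libraries 8 different transcripts of Csnk2a2 ranked first, and 4.39% of the 31-base words of Csnk2a2-210, 22.3% of Csnk2a2-202 and 19.5% of Csnk2a2-206 occur in no other transcript. The remaining transcripts were each at most at 6.46 TPM, a value of Csnk2a2-205, a transcript marked for nonsense-mediated decay, in shRNA mCsnk2a1 3. One, Csnk2a2-208, was listed at 0 in every library.

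The coding TPM of Csnk2a2 was 1.35, 0.221 and 2.13 in the shRNA Control libraries and 0.448, 27.9 and 7.39 with the hairpin. It was 3.62, 4.09 and 2.48 in the pcDNA4c Control libraries and 5.58, 0.246 and 3.47 with the Csnk2a1 vector. In the highest vector libraries most of the gene's TPM lay outside coding transcripts, with 3.62 of 18.2 TPM coding in pcDNA4c Control 1 and 5.58 of 30.7 in pcDNA4c mCsnk2a1 1. Only shRNA mCsnk2a1 2 and 3 exceeded 6 TPM, and hairpin library 1 stayed within the control range. The log2(TPM + 1) difference was 1.76 (SE 0.94, limma adjusted p = 0.646) with the hairpin and -0.39 (SE 0.94, limma adjusted p = 0.948) with the vector. Without shRNA mCsnk2a1 2 the hairpin value was 0.75 and without shRNA mCsnk2a1 1 it was 2.91 (limma adjusted p = 0.337), and the vector value ran from -0.88 without pcDNA4c mCsnk2a1 1 to 0.32 without pcDNA4c mCsnk2a1 2. The coding share of the gene's TPM ran from 6.48% to 100%, with a mean of 71.7%.

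Csnk2b, the gene of the regulatory subunit, was the steadiest of the 3 in CPM. Its CPM in libraries 1, 2 and 3 was 77.0, 50.8 and 97.8 for shRNA Control and 75.1, 109 and 82.0 for shRNA mCsnk2a1. The pcDNA4c Control libraries were at 35.6, 33.2 and 42.8 CPM, and those of pcDNA4c mCsnk2a1 at 33.0, 32.8 and 94.0. The shRNA libraries were all at or above 50.8 CPM and the vector libraries all at or below 42.8 CPM, except pcDNA4c mCsnk2a1 3. The coefficient of variation over the 12 libraries was 44.9%, and 5.94% of the genes tested had a lower one.

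Neither manipulation moved Csnk2b past the test. The log2 fold change was 0.24 (SE 0.69, edgeR adjusted p = 1.00) with the hairpin and 0.52 (SE 0.70, edgeR adjusted p = 0.966) with the vector, and the latter turned to -0.14 without pcDNA4c mCsnk2a1 3. In coding TPM the shRNA Control libraries were at 70.2, 42.8 and 85.0 and the hairpin libraries at 49.3, 77.6 and 56.8. The pcDNA4c Control libraries were at 10.5, 8.66 and 22.6 coding TPM and those of the Csnk2a1 vector at 26.0, 24.8 and 71.3, so that every overexpression library was above every vector control. The log2(TPM + 1) difference with the vector was 1.42 (SE 0.62), with an unadjusted limma p of 0.0375, an adjusted p of 0.606 and an exact two-sided permutation p of 0.1. Of all genes, 16.4% did not overlap between these groups on coding TPM. Summed over all transcripts of Csnk2b the same groups did overlap (exact two-sided permutation p = 0.3). The sums were 20.8, 19.5 and 26.8 TPM in pcDNA4c Control and 26.0, 24.8 and 71.3 with the Csnk2a1 vector. With the hairpin the difference on coding TPM was -0.08 (SE 0.62, limma adjusted p = 0.988).

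The full-length Csnk2b-201 (961 bases, 645 coding) was at 34.3, 42.8 and 23.6 TPM in the shRNA Control libraries and at 49.3, 72.0 and 56.3 with the hairpin. It was at 0, 8.66 and 22.6 TPM in the pcDNA4c Control libraries and at 26.0, 7.61 and 0 with the Csnk2a1 vector. Each hairpin library was above each shRNA Control library for this transcript, with a log2(TPM + 1) difference of 0.82 (SE 1.21, limma adjusted p = 0.900, exact two-sided permutation p = 0.1), and 8.85% of the transcripts tested did not overlap there. The gene's coding sum did overlap in that arm. With the vector the groups overlapped for Csnk2b-201, with a difference of 0.01 (SE 1.21, limma adjusted p = 1.00).

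In some libraries with little Csnk2b-201, other models carried most of the gene. This was not so in pcDNA4c Control 3, where Csnk2b-201 at 22.6 TPM held 84.4% of the gene's TPM. Csnk2b-208, a 402-base fragment open at its 3' end, was at 52.6 TPM in shRNA Control 3, 49.7 in pcDNA4c mCsnk2a1 3, 6.08 in shRNA Control 1 and 2.13 in pcDNA4c Control 1, and listed at 0 in the other 8. Csnk2b-209 (632 bases) was at 21.6 TPM in pcDNA4c mCsnk2a1 3, 17.2 in pcDNA4c mCsnk2a1 2 and 8.79 in shRNA Control 3, and listed at 0 in the other 9. Of their 31-base words, 5.11% and 0% occur in no other transcript, against 12.1% for Csnk2b-201. Csnk2b-202 was at 29.8 TPM in shRNA Control 1 alone. The retained-intron Csnk2b-204 was at 10.3 and 10.8 TPM in pcDNA4c Control 1 and 2 and at 4.39 in shRNA Control 2, and listed at 0 in the other 9. The 5 other transcripts reached at most 8.42 TPM, a value of Csnk2b-203 in pcDNA4c Control 1, where Csnk2b-201 was at 0. Csnk2b-203 (917 bases) has 645 coding bases, as many as Csnk2b-201.

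Coding transcripts made up 44.5% to 84.4% of Csnk2b TPM in pcDNA4c Control (mean 59.9%), against 90.7% to 100% in shRNA Control and 100% in each library of both treated groups. The lower share in pcDNA4c Control goes with the retained-intron messages Csnk2b-204 and Csnk2b-210, the latter at 4.17 TPM in pcDNA4c Control 3. Those are the libraries with 808 to 940 CPM of microglial markers, and the part of these cells in the Csnk2b values was not tested.

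**Figure D3:**
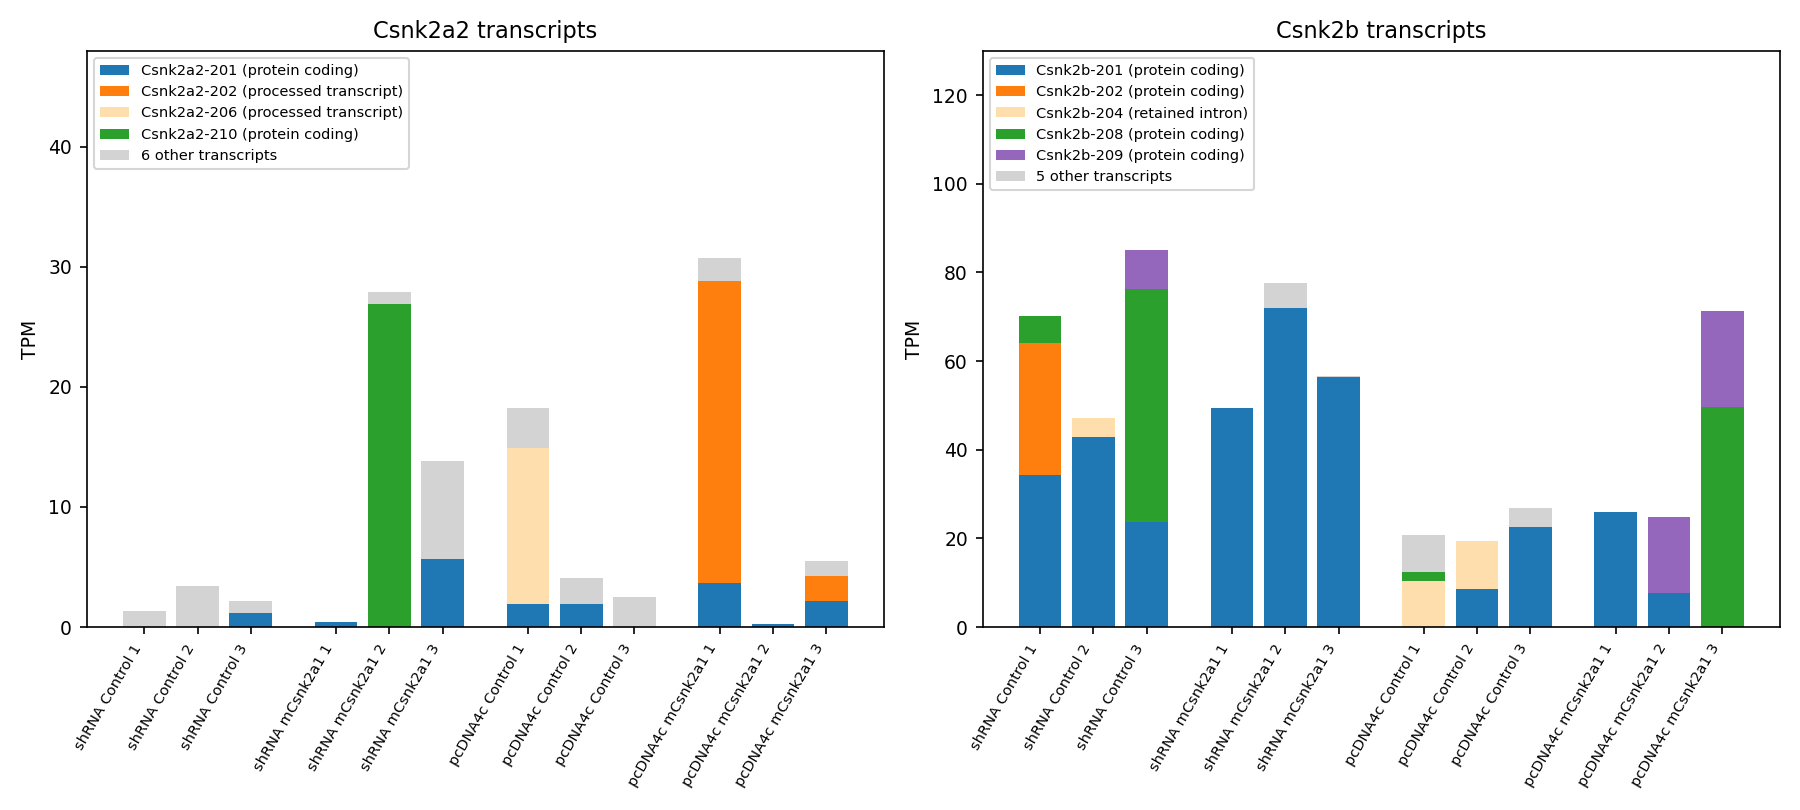
Stacked TPM of the transcripts of Csnk2a2 (left) and Csnk2b (right), 1 bar per library, with transcripts whose mean is under 1 TPM joined in grey. The tallest Csnk2a2 bars are each led by a different model, with 26.9 TPM of Csnk2a2-210 in shRNA mCsnk2a1 2 and 25.2 TPM of Csnk2a2-202 in pcDNA4c mCsnk2a1 1, while Csnk2b-201 leads all 3 shRNA mCsnk2a1 bars.

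Per length and on the mean over the 12 libraries, the regulatory subunit's message was above the catalytic ones. In pcDNA4c Control 1 and pcDNA4c mCsnk2a1 2 it was below that of Csnk2a1, at 10.5 against 12.2 and 24.8 against 28.4 coding TPM. Mean coding TPM over the 12 libraries was 45.5 for Csnk2b, 7.75 for Csnk2a1 and 4.91 for Csnk2a2. Among 20272 protein-coding genes these ranked 306, 2881 and 4570, and the order of the catalytic genes differed by group. With the hairpin Csnk2a2 ranked 1907 and Csnk2a1 6326, while in shRNA Control Csnk2a1 ranked 4518 and Csnk2a2 11424. The ratio of Csnk2b to the summed catalytic coding TPM ran from 5.76 to 23.3 in the shRNA Control libraries and from 2.64 to 31.2 with the hairpin. It ran from 0.666 to 4.37 in the pcDNA4c Control libraries and from 0.867 to 4.24 with the Csnk2a1 vector. Both vector groups lay below shRNA Control in this ratio (exact two-sided permutation p = 0.1 for each, the smallest possible here), and the hairpin group overlapped all 3 others. On the coding TPM of single genes, 15.7% of all genes did not overlap between the control groups. Between shRNA Control and pcDNA4c mCsnk2a1 that share was 11.3%.

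Csnk2a2 made up a variable part of the catalytic message. Its share of the summed Csnk2a1 and Csnk2a2 coding TPM was 59.0% ± 33.6 with the hairpin against 24.6% ± 29.3 in its control, and 21.0% ± 20.4 with the vector against 43.9% ± 19.3 in its control (SD, n = 3 each). The groups overlapped in each arm, with exact two-sided permutation p = 0.3 for the hairpin and 0.2 for the vector. The summed catalytic coding TPM was 14.9 ± 13.9 with the hairpin against 6.89 ± 4.63 in its control, and 19.6 ± 7.98 with the vector against 9.24 ± 5.76 in its control (SD, n = 3 each). Its exact permutation p was 0.6 in the shRNA arm and 0.2 in the vector arm.

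Placed in order of mean CPM, the groups did not separate at any step for Csnk2a1, which ran from pcDNA4c mCsnk2a1 through pcDNA4c Control and shRNA Control to shRNA mCsnk2a1. The exact two-sided permutation p of its neighbouring groups was 0.2, 1.0 and 0.4. For Csnk2a2 the order was shRNA mCsnk2a1, pcDNA4c mCsnk2a1, pcDNA4c Control, shRNA Control, with exact permutation p of 0.7, 0.8 and 0.1, and only the last step did not overlap. For Csnk2b it was shRNA mCsnk2a1, shRNA Control, pcDNA4c mCsnk2a1, pcDNA4c Control, with exact permutation p of 0.5, 0.3 and 1.0. Of all 18 pairs of groups over the 3 genes, 4 did not overlap. They were the opposite manipulations for Csnk2a1, the control groups for Csnk2a2, and pcDNA4c Control against each shRNA group for Csnk2b. The share of all genes that did not overlap in CPM ran from 9.45% to 15.5%, depending on the pair of groups. Of all genes, 14.9% did not overlap between shRNA mCsnk2a1 and pcDNA4c Control in CPM, and 15.0% did not in coding TPM, where Csnk2b did not overlap either. Each of the 4 pairs had the smallest exact p that 3 against 3 libraries allow, 0.1, or 0.45 adjusted over the 18 pairs.

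The control groups, which differ in vector and share no intended change of Csnk2a1, were compared as well. From pcDNA4c Control to shRNA Control the edgeR log2 fold change of Csnk2b was 1.02 (SE 0.70, adjusted p = 1.00), with 75.2 ± 23.5 against 37.2 ± 5.00 CPM (SD, n = 3 each). On coding TPM it was 2.22 (SE 0.62), with an unadjusted limma p of 0.00288 and an adjusted p of 0.334. Csnk2a2 went the other way, with a log2 fold change of -2.47 (SE 1.32, edgeR adjusted p = 1.00), which was -1.12 without pcDNA4c Control 1. Csnk2a1 was at -0.08 (SE 0.87, edgeR adjusted p = 1.00), a value whose sign turned to 0.05 with the median-of-ratios scaling (RLE) and with DESeq2 and to 0.12 with Csnk2a3 added, and which was 0.73 without pcDNA4c Control 1 and 0.42 without shRNA Control 3. Between these groups 13.7% of all genes did not overlap in CPM and edgeR called 0.0691%. Csnk2a2 and Csnk2b also did not overlap on coding TPM, where 15.7% of genes did not and limma called 0.104%. On TPM summed over all transcripts Csnk2a2 did overlap (exact two-sided permutation p = 0.2), while Csnk2b did not. Microglial markers were 61.1 to 99.8 CPM in shRNA Control and 808 to 940 in pcDNA4c Control. Mueller glial markers were 385 to 625 CPM against 1175 to 1560, and bipolar cell markers 481 to 618 against 169 to 293. Genes with a count numbered 20352 to 22146 against 22688 to 25326. The part of these differences was not tested.

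**Figure D4:**
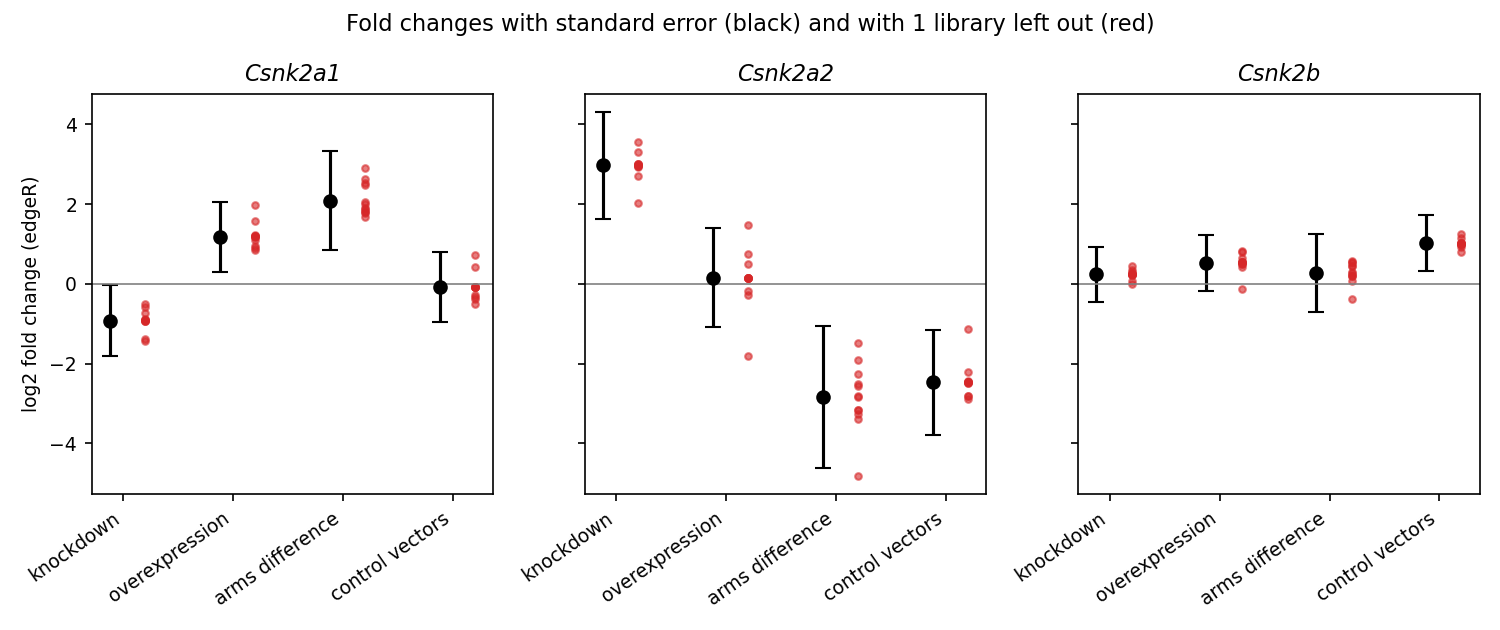
Log2 fold changes from edgeR for Csnk2a1, Csnk2a2 and Csnk2b in 4 comparisons. Knockdown is the hairpin group minus its control, overexpression the Csnk2a1 vector group minus its control, arms difference the second of these minus the first, and control vectors shRNA Control minus pcDNA4c Control. Black points carry 1 standard error, red points are the values with 1 library left out, and the red points of Csnk2a2 under overexpression lie between -1.82 and 1.48.

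A list of 28 CK2 partners and substrates was set beside the subunits, all of which passed the count filter. It holds chaperones that CK2 phosphorylates (Cdc37, Hsp90aa1, Hsp90ab1), nucleolar substrates (Npm1, Ncl, Nolc1), the chromatin factors Ssrp1 and Supt16, and regulators such as Akt1 and Ctnnb1. By edgeR 0 of 28 passed the test in either arm, where 0% of all genes passed under knockdown and 0.0987% under overexpression. DESeq2 and limma voom called 0 of the list as well, and in DESeq2 2 of the 28 had no adjusted p. Of all 20267 genes DESeq2 called 183 and 249 in these arms and limma voom 2 and 37. At such shares few or none of 28 genes would be called, so the 0 says little about the list. At an unadjusted edgeR p under 0.05 there were 2 of 28 (7.14%) in each arm, against 8.33% of all genes in the knockdown and 8.73% in the overexpression comparison, so that the list was not above the background. In the knockdown comparison 19 of 28 had a fold change above 0 and the median was 0.38, against -0.03 over all genes, of which 48.9% were above 0. In the overexpression comparison 20 of 28 were above 0 with a median of 0.36, against -0.16 over all genes, of which 45.1% were above 0. Groups did not overlap for 3 of 28 in the knockdown comparison, where 12.3% of all genes did not overlap, and for 5 of 28 in the overexpression comparison, where 15.5% did not. Among the members of the list with the smallest p in the overexpression comparison, Hsp90ab1, the constitutive cytosolic HSP90, was at 679 ± 194 CPM with the Csnk2a1 vector and 407 ± 44.4 with its control (SD, n = 3 each), with groups that did not overlap (log2 fold change 0.74, SE 0.34, edgeR adjusted p = 0.568).

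Genes most like each subunit gene were found by the root mean square (RMS) difference of centred log2 CPM over the 12 libraries, among 14981 protein-coding genes. For Csnk2a1 these were Tsg101, Dnajc2 and Tmem87a at 0.59, 0.62 and 0.64, where the median gene was at 1.99. For Csnk2a2 they were Aatk, Nap1l2 and Slirp at 0.93, 1.05 and 1.09, with a median gene at 2.48. For Csnk2b they were Lars2, Tmsb10 and Timm8b at 0.38, 0.40 and 0.41, with a median gene at 1.71. The subunit genes were not among each other's nearest. Csnk2a1 and Csnk2b differed by 1.54, Csnk2a2 and Csnk2b by 2.12, and Csnk2a1 and Csnk2a2 by 2.31. These values describe 12 libraries that share groups and depth, and a steady gene such as Csnk2b is near to other steady genes by this measure.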

How the data were processed

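RNA-seq of 12 libraries (4 groups of 3) was used. The deposited gene table holds estimated counts, of which 99.9% of the values above 0 are not whole, and the deposited transcript table holds TPM. A deposited scaled signal in CPM units covers 11 libraries and was used only to check that it equals the gene value times 1 constant per library. kallisto 0.45.0, edgeR 3.28 and mm10 are named per the submitters' processing notes, and the annotation release and strand setting are not given in the sources used here. GENCODE M21 contained 97.9% of the deposited transcripts and supplied types and sequences.

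Estimated counts were rounded and fitted over all 4 groups with edgeR 4.0.16 (TMM, filterByExpr with a minimum count of 10, quasi-likelihood test, Benjamini-Hochberg threshold 0.05). Standard errors were taken as the fold change over the root of its F statistic. The common biological coefficient of variation was 1.26. TPM was tested with limma 3.58.1 on log2(TPM + 1), a scale that understates changes of low genes, for features with at least 1 TPM in 3 libraries. The fits were tested on simulated data with less spread than these libraries have, which does not show how well they work at this spread. Alternatives were RLE or no scaling, other filters, DESeq2 1.42.0, limma voom, a replicate block, single arms, a pseudocount of 0.1 and each library left out. The kit's PCR copies were counted without molecular identifiers, so counting error understates the true error.

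Members and lists were chosen with earlier results of these data known. Named were the 3 genes, their transcripts with a mean of at least 1 TPM (others by exception, after their values were seen), the 3 most similar protein-coding genes of each, and the 2 listed partners with the smallest p in each arm, not all of which are reported here.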

Additional observations from a re-analysis of the deposited data

How the results depend on the processing

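Over 18 fold changes and differences of the 3 genes and 337 alternatives, 0 passed the threshold (smallest adjusted p 0.31, edgeR, DESeq2 or limma) and 14 took the other sign. These were Csnk2a1 between the control vectors (0.05 with RLE, 0.05 with DESeq2, 0.12 with Csnk2a3 added, an alternative chosen after seeing the data, and -0.50 to 0.73 with 1 library left out, against -0.08), Csnk2a2 under overexpression (-1.36 with limma voom, -1.82 to 1.48 with 1 library left out, among them -0.19 and -0.29 without pcDNA4c Control 2 and 3), Csnk2b under overexpression (-0.14 to 0.82) and its difference between arms (-0.39 to 0.57), and on coding TPM Csnk2b under knockdown (-0.36 to 0.13, among them 0.06 without shRNA mCsnk2a1 1) and Csnk2a2 under overexpression (-0.88 to 0.32). RLE moved the median of all genes by 0.16 in the difference between arms and by 0.13 between control vectors, and library size alone by -0.19 under knockdown and -0.14 under overexpression.

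Counts over all genes depended on the method more than on single libraries. Against 0, 20, 4 and 14 genes (knockdown, overexpression, difference between arms, control vectors), no count filter gave 93, 111, 137 and 71, DESeq2 183, 249, 209 and 69, and 1 library left out gave 0 to 4, 14 to 35, 2 to 16 and 11 to 20. Limma voom gave 2, 37 and 1 for the first 3, RLE and a filter of 50 counts in 3 libraries each gave 2 for the difference between arms, and a fit of the compared groups alone gave 6 under overexpression. Against 12 and 45 transcripts (knockdown, overexpression), no TPM filter gave 100 and 208, 1 library left out gave 0 to 18 and 3 to 54, and the compared groups alone gave 0 under knockdown. The replicate numbers did not pair the libraries (correlations of -0.0398 to 0.0359 over 18 same-numbered pairs, and 3 of 12 libraries correlated best with their own number). With the replicate block the counts were 1 gene under knockdown, 9 for the difference between arms, and 4 and 26 transcripts. The cause of these changes was not tested.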
